A study of Homo sapiens with 10 samples.

Results

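miR-296 is a human microRNA whose hairpin gives a 5p and a 3p arm, and each arm had its own assay among the miRNAs recovered with probes against chosen messenger RNAs. The assays were chosen by name, every entry beginning hsa-miR-296, which gave 2 of the 745 miRNA assays on the panels: miR-296-5p on panel 1 and miR-296-3p on panel 2. The interest in miR-296-5p (panel name hsa-miR-296-5p) came from its values with the p21 and control probes in HepG2, so those values are given as a description. Its STAT3 and PC-3 values and the miR-296-3p assay were not named in that choice, although they share purifications with it.

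In the study, a nucleic acid probe was transfected into living cells for 24 h, and streptavidin beads then took out the RNA associated with it, in a procedure called miRIP. HepG2, a human liver tumour line, was purified with a p21 probe, a STAT3 probe and a control probe. PC-3, a human prostate cancer line, was purified with a p21 probe and a control probe. Each of the 5 purifications was run on 2 quantitative PCR panels with different miRNA assays, which gave the 10 samples. Each condition was purified 1 time and each miR-296 arm was read in 1 well per purification, so no difference has a replicate check and no test between conditions was made. The labels do not say where the probes bind or what the control probe is.

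A miRNA hairpin is cut to a short duplex, and one arm of it is loaded into an Argonaute protein, where bases 2 to 8, the seed, pair with target messenger RNAs and lower their translation or stability. p21 is the product of CDKN1A, an inhibitor of cyclin-dependent kinases that slows the cell cycle, and miR-296-5p is a reported repressor of its mRNA through the 3′ untranslated region. miR-296 is also known as a miRNA of blood vessel growth, and in prostate cancer as a repressor of the chromatin protein HMGA1.

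The sequences of both arms are shown because each arm had its own assay and the arms gave unequal readings; capitals mark the seed in the mature miRNAs. The hairpin shows where the arms lie, with both mature arms in capitals. All come from RefSeq, build GRCh38.p14.
miR-296-5p: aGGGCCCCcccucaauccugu
miR-296-3p: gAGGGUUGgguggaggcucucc
MIR296 hairpin: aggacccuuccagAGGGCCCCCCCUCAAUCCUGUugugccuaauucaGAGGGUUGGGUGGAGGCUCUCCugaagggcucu
miR-296-5p lies at chr20:58817661-58817681 and miR-296-3p at chr20:58817626-58817647, both on the minus strand. The gene MIR296 spans chr20:58817615-58817694 and no other gene in the RefSeq table overlaps it. MIR298 starts after a gap of 531 bases, the antisense RNA gene GNAS-AS1 after 1223 bases, and GNAS, the gene of a G protein subunit in an imprinted region, after 22053 bases. No other mature entry in the table shared bases 2 to 8, or bases 2 to 7, with either arm. miR-296-5p holds a run of 7 C, and 2 of 2351 distinct mature sequences hold a run that long or longer. The arms are rich in G and C, at 66.7% for miR-296-5p and 68.2% for miR-296-3p, against a median of 52.2%; 15.7% and 13.3% of mature sequences reach these values.

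Both arms were most abundant with the p21 probe in HepG2. The reading is the Cq, the PCR cycle at which the signal crosses threshold, so a lower Cq means more template; a Cq of at most 35 was counted as detected. miR-296-5p gave a Cq of 27.73 with the p21 probe, 32.93 with the STAT3 probe and 36.55 with the control probe in HepG2. In PC-3 it gave no Cq with the p21 probe and none with the control probe. It was therefore detected with both target probes in HepG2, and with the control probe its signal came only after the limit. miR-296-3p gave a Cq of 30.75 with the p21 probe, 33.70 with the STAT3 probe and 34.84 with the control probe in HepG2. In PC-3 it gave no Cq with the p21 probe and 36.71 with the control probe. The 3p arm was thus detected in all 3 HepG2 purifications, in the same order as the 5p arm, and in neither PC-3 purification. Of all 745 assays, 28.3% were detected with the p21 probe, 34.4% with the STAT3 probe and 16.8% with the control probe in HepG2, and 7.11% with the p21 probe and 2.15% with the control probe in PC-3. The panels differed in HepG2. Panel 1 gave 128, 139 and 108 of 375 assays with the p21, STAT3 and control probes, and panel 2 gave 83, 117 and 17 of 370. Shares of all assays pool the 2 panels.

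**Figure D1:**
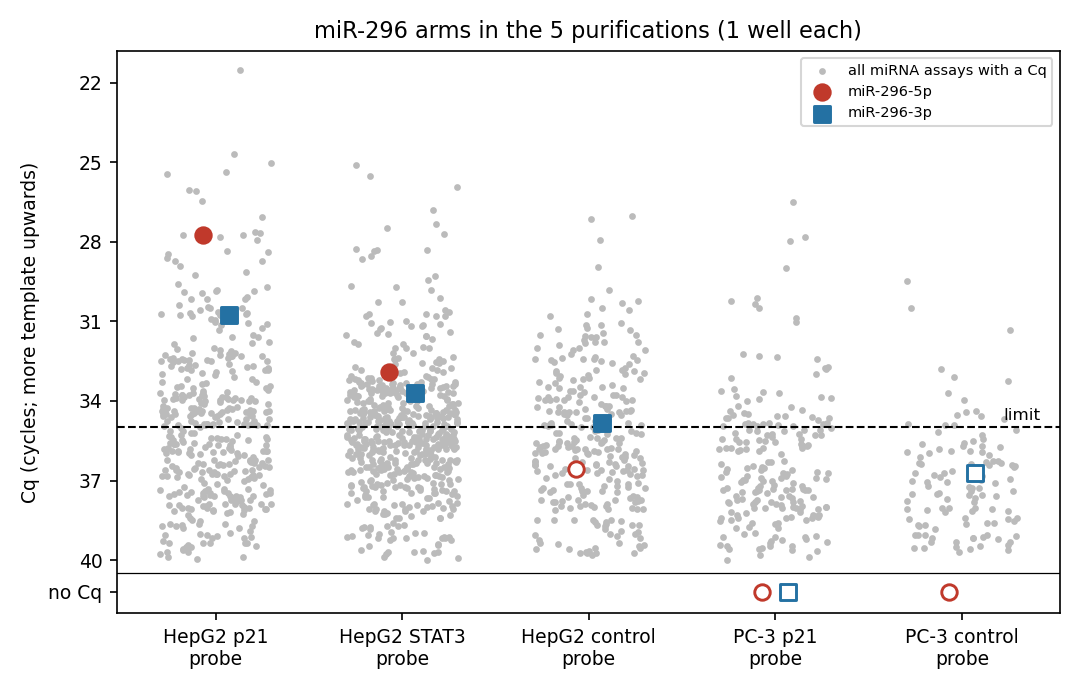
Cq (cycles, axis inverted) of every miRNA assay with a Cq in each purification (grey), with miR-296-5p as circles and miR-296-3p as squares, 1 well each; hollow symbols are above the limit of Cq 35 (dashed line) or gave no Cq. Both arms sit highest with the p21 probe in HepG2, at 27.73 and 30.75, and neither is detected in PC-3.

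The only error at hand was technical. Reference assays with a well on each panel varied by 0.63 cycles (SD, 22 pairs) in a single Cq and by 0.69 cycles (SD, 17 pairs) in a difference between purifications. For miR-296-5p, the steps between neighbours in HepG2, 5.20 cycles from the p21 to the STAT3 probe and 3.63 from the STAT3 to the control probe, were larger than that SD. For miR-296-3p the step of 2.95 cycles between the p21 and STAT3 probes was larger too. Its step of 1.13 cycles between the STAT3 and control probes was less than 2 SD. The error of transfection and purification is not part of these SDs. Wells above the limit were left out of them, while the step of 3.63 cycles uses the miR-296-5p control well at 36.55. The 17 pairs reuse wells across comparisons, so they are not independent.

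miR-296-5p stood 12th by Cq among the 211 assays detected with the p21 probe in HepG2, and 71st among the 256 detected with the STAT3 probe. It was absent from the 125 detected with the control probe. The purification's lowest Cq belonged to miR-92a, of the miR-25 family, at 21.54 with the p21 probe. miR-296-3p stood 46th with the p21 probe, 128th with the STAT3 probe and 116th with the control probe. Ranks set different assays side by side, whose efficiencies can differ, and serve only to place the arms.

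With the p21 probe against the control probe in HepG2, both arms were higher than the shift of their panel. The median shift of the assays detected with both probes, 1.30 cycles on panel 1 (87 assays) and 1.06 on panel 2 (16 assays), was subtracted, with 1 cycle taken as 1 log2 unit. The p21 probe gave at least 5.97 log2 units more miR-296-5p (at least 62.6-fold), with the control set to the limit of 35. The control well's own Cq of 36.55 would give 7.52. Large rises were not particular to miR-296-5p on panel 1. miR-92a came at 21.54 with the p21 probe and 30.58 with the control probe, and miR-92b at 25.45 and 33.16. Other assays with a low Cq moved less, such as miR-720 at 24.69 and 27.02 and miR-24 at 27.06 and 30.25. Of all assays, 14.5% were detected with the p21 and not the control probe, and on panel 1 alone 41 of 375. miR-296-3p, measured with both probes, was 3.02 log2 units higher (8.14-fold), the 11th highest of 103 such assays. Of those 103, 37.9% were higher and 36.9% lower by 2-fold or more. U6, SNORD38B and SNORD49A, small RNAs that are not miRNAs, were also higher with the p21 probe, by a mean of 2.44 cycles on panel 1 and 2.51 on panel 2. With these as the centre the 5p bound was 4.83 and the 3p value 1.57, and with all reference assays as the centre 3.55 and 1.37.

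The description of miR-296-5p as found with the p21 and not the control probe rests on the limit. At 35 it had the lowest Cq of the 108 such assays. Next came miR-423-5p on panel 2 at Cq 28.39, miR-1247 at 29.91 and miR-31 at 30.38. The panel 1 well of miR-423-5p was detected with both probes, at 28.72 (p21) and 34.43 (control). miR-31 lay just outside the limit with the control probe, at 35.20, and miR-296-5p 1.55 cycles outside it. At a limit of 37 miR-296-5p counts as detected with the control probe. Then 148 assays qualify, with the panel 2 well of miR-423-5p the lowest in Cq. At 32, 43 assays qualify and miR-296-5p is the 3rd of them.

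Set against the STAT3 probe, the p21 probe in HepG2 gave higher readings of both arms. No control value enters, but the p21 Cq of miR-296-5p that led to its choice does. miR-296-5p was higher by 4.56 log2 units (23.5-fold), the 2nd highest of 155 assays measured with both, and miR-296-3p was 2.87 higher (7.31-fold), the 9th highest. Among those 155 assays, 29.0% were higher and 20.0% lower by 2-fold or more. Over the 6 centrings tried, miR-296-5p ran from 3.54 to 6.18 and miR-296-3p from 2.09 to 3.42. Both therefore stayed at least 2-fold higher with the p21 probe under each of these centrings.

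With the STAT3 probe against the control probe, the values of both arms depended on the centre. miR-296-5p was at least 1.58 log2 units higher with the STAT3 probe (at least 3.0-fold). Of all assays 20.9%, and on panel 1 alone 52 of 375, were detected with the STAT3 and not the control probe. Centred on U6, SNORD38B and SNORD49A the bound of miR-296-5p was 0.32, and on all reference assays -0.033, which sets no direction. miR-296-3p was itself the median of the 13 assays of its panel measured with both probes, so its centred value is 0 by construction. Against the median of the other assays it was 0.03, and without centring 1.13. It was -1.18 when centred on U6, SNORD38B and SNORD49A and -0.80 on all reference assays, so its direction turned with the centre.

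**Figure D2:**
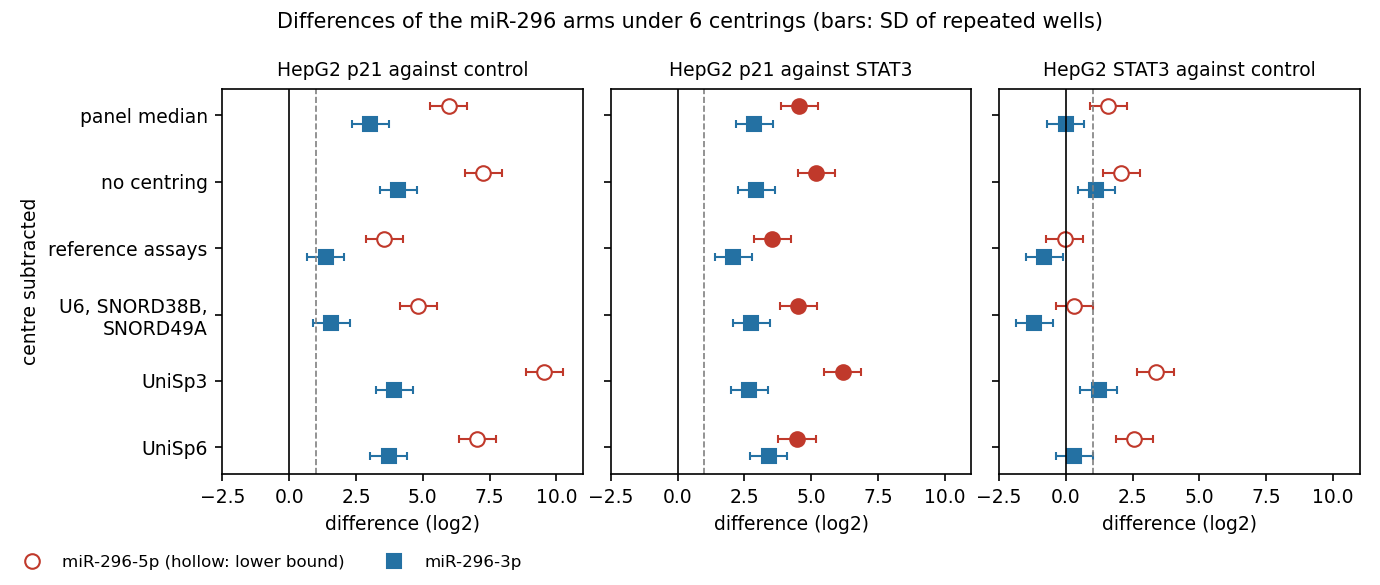
Difference between purifications (log2 units, horizontal) of miR-296-5p (circles, hollow where a lower bound) and miR-296-3p (squares) under 6 centrings (rows), with bars of 1 SD of a difference between repeated wells, a line at 0 and a dashed line at 1. In both p21 comparisons every value lies above 1, the lowest being 1.37, while the STAT3 against control values lie on both sides of 0.

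The 2 arms did not move by the same amount. The Cq of miR-296-5p minus that of miR-296-3p was -3.02 with the p21 probe, -0.78 with the STAT3 probe and 1.72 with the control probe in HepG2, the last using the 5p well above the limit. From the STAT3 to the p21 purification the 5p arm moved 2.24 cycles more than the 3p arm, or 1.69 after centring each panel. That was larger than the SD of 0.98 cycles for a difference between 2 assays, but by less than 2 SD after centring. The panels hold 184 pairs of arms of 1 hairpin, and 14 pairs were detected with both target probes. Their arms differed by a median of 1.41 log2 units in size after centring, from 0.08 to 3.62, and in 6 pairs by more than in miR-296. Unequal arms were thus not particular to this hairpin.

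The PC-3 purifications, which played no part in the choice of miR-296-5p, held neither arm at a detectable level. In HepG2 with the p21 probe 11 assays had a lower Cq than miR-296-5p, and all 11 were detected with the p21 probe in PC-3, from miR-720 at 26.50 to miR-23a at 34.21. miR-296-5p was the first in that order with no Cq in PC-3. Of the first 20 assays, 16 were detected in PC-3 with the p21 probe and 18 gave some Cq. The other assay without a Cq was miR-103 on panel 1, whose panel 2 well gave 34.86, so a well without a Cq can stand beside one just under the limit.

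Between the cell lines, miR-296-5p was higher by at least 4.77 log2 units with the p21 probe in HepG2 than with the p21 probe in PC-3 (at least 27.2-fold). The median shift of panel 1, 2.50 cycles over 31 assays detected in both, had been subtracted. The 97 assays of panel 1 detected in HepG2 alone, miR-296-5p among them, do not enter that centre. Under the other centrings the bound of miR-296-5p was higher, from 6.01 on the reference assays to 8.32 on UniSp3. At a limit of 32 it was lower, at 1.86. Panel 1 assays of like Cq in HepG2 also came much later in PC-3. miR-125a-5p gave 27.66 in HepG2 and 33.82 in PC-3, and let-7g 27.83 and 35.22, the last above the limit. Others moved less, such as miR-720 at 24.69 and 26.50 and let-7e at 28.62 and 31.03. For miR-296-3p the bound was 1.95 (at least 3.87-fold), with a shift of 2.30 cycles over 14 assays. Under the other centrings that bound ran from 1.26 on the reference assays to 4.25 without centring. Of all assays, 22.3% were detected in HepG2 and not in PC-3 with this probe. On panel 1, U6 came at 28.78 with the p21 probe in HepG2 and 28.62 in PC-3, SNORD38B at 27.88 and 28.46, and SNORD49A at 26.33 and 27.41. On panel 1 these small RNAs were thus within 1.1 cycles of each other in the 2 lines. On panel 2, which holds miR-296-3p, they were more abundant with the p21 probe in HepG2 than in PC-3 by a mean of 1.61 cycles. Total RNA of the lines was not analysed here, so a lower level in the cells and a poorer recovery cannot be told apart.

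**Figure D3:**
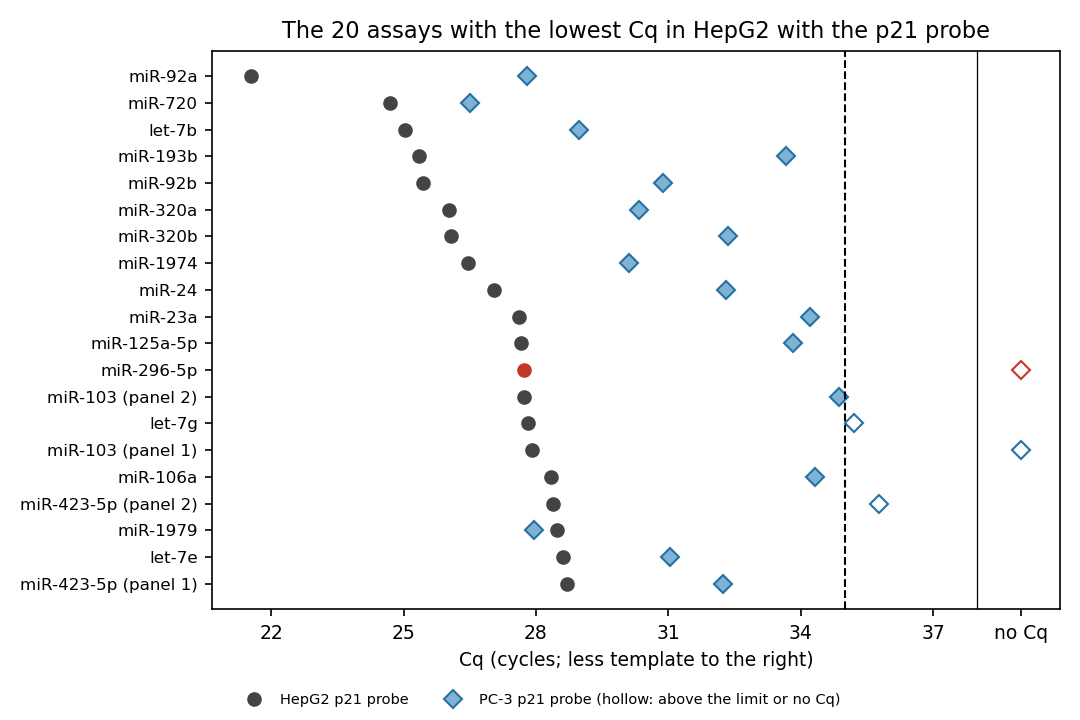
Cq (cycles) of the 20 assays with the lowest Cq in HepG2 with the p21 probe (circles) beside their Cq in PC-3 with the p21 probe (diamonds, hollow above the limit of 35 or without a Cq), with miR-296-5p in red. The 11 assays above miR-296-5p in the list are all detected in PC-3, where miR-296-5p has no Cq.

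Against its control in PC-3, neither arm allows a fold, since none of the 4 wells was at or under the limit. The authors' deposited table nevertheless lists miR-296-5p at 0.710 and miR-296-3p at 1.510 for this comparison. The same values follow from the UniSp6 spike-in alone when both purifications are set to Cq 35, and 335 and 338 of its 729 entries hold them. For HepG2 the authors' deposited table gives 131-fold (p21 probe) and 5.91-fold (STAT3 probe) for miR-296-5p, and 13.3-fold (p21 probe) and 1.24-fold (STAT3 probe) for miR-296-3p.

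miR-298, whose gene lies beside that of miR-296 and which is also a reported p21 regulator, was not detected. Its panel 1 assay gave no Cq with the p21 probe, 39.48 with the STAT3 probe and no Cq with the control probe in HepG2, and none in PC-3. Its mature sequence, shown with its seed in capitals, shares no seed with either arm of miR-296.
miR-298: aGCAGAAGcagggagguucuccca

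Other reported p21 regulators were recovered with the p21 probe in HepG2 at about the rate of all assays. Of 32 listed, 31 were on the panels, and 9 of 31 (29.0%) were detected with the p21 probe in HepG2, beside 28.3% of all assays. With the STAT3 probe 7 of 31 (22.6%) were detected, beside 34.4% of all assays, and with the control probe 6 (19.4%), beside 16.8%. Most of the listed assays lie on panel 1, while these shares of all assays pool both panels. The control probe in HepG2 gave 108 of 375 assays on panel 1 and 17 of 370 on panel 2. In PC-3 2 were detected with the p21 probe (6.45%, beside 7.11%) and 0 with the control probe, beside 2.15%. No Cq in any purification was given by 10 of the 31, and the same share of all assays is not given here. Among the 9, miR-106a, of the miR-17 family, had the lowest Cq in the p21 purification of HepG2, at 28.35 with the p21 probe, 30.82 with the STAT3 probe and 32.01 with the control probe.

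In each HepG2 purification miR-93 and miR-20a, relatives of miR-106a, gave later signals than it, except that miR-93 with the STAT3 probe came at 30.79. miR-93 gave 29.85 with the p21 probe and 32.45 with the control probe, and miR-20a gave 30.07, 31.50 and 33.01 with the p21, STAT3 and control probes. miR-423-3p, reported to repress p21 in liver cancer cells, gave 30.17 with the p21 probe, 29.30 with the STAT3 probe and 32.86 with the control probe. It was the only one of the 9 with more template under the STAT3 than the p21 probe. miR-132, miR-22, miR-17, miR-345 and miR-654-3p lay between 32.29 and 34.92 with the p21 probe, closer to the limit. For the p21 regulators detected in that purification whose panel name is in the sequence table, 2 of 9, the seeds in capitals differ from those of miR-296.
miR-423-3p: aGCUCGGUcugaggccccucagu
miR-654-3p: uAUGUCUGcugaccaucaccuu

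Of the 6 listed regulators measured with both the p21 and control probes in HepG2, 4 were at least 2-fold higher with the p21 probe and 0 lower, beside 37.9% and 36.9% of all assays. The 4 were miR-106a, its relatives miR-93 and miR-20a, and miR-423-3p. All 6 lie on panel 1, while the shares of all assays pool both panels. On the reference assays the count of the 6 turned to 0 higher and 4 lower, beside 8.74% and 68.0% of all assays. Their median was 1.34 log2 units, against 0 for all assays; it turned to -1.08 on the reference assays, where that of all assays was -2.25. For the p21 against the STAT3 probe, 1 of 6 was at least 2-fold higher and 1 lower, near the 29.0% and 20.0% of all assays. Their median was 0.25, and -0.76 on the reference assays, where that of all assays was -0.88. There 0 were higher and 2 lower, beside 16.8% and 49.0% of all assays. miR-106a was the highest of these 6 at 1.82 and miR-423-3p the lowest at -1.50.

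**Figure D4:**
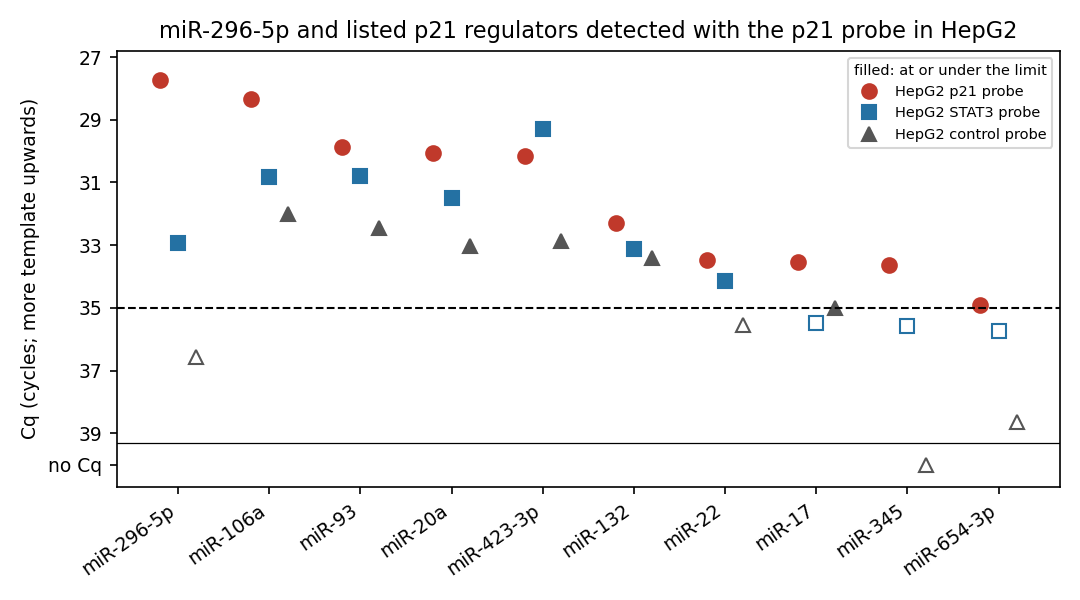
Cq (cycles, axis inverted) of miR-296-5p and of the 9 listed p21 regulators detected with the p21 probe in HepG2, with the p21 (circles), STAT3 (squares) and control (triangles) probes, hollow above the limit of 35 or without a Cq. miR-296-5p, whose p21 and control values led to its choice, runs between 27.73 with the p21 probe and 36.55 with the control probe; among the listed regulators only miR-423-3p has a lower Cq with the STAT3 than with the p21 probe.

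The panel 1 assays most like miR-296-5p were named by the smallest root mean square difference of Cq over the 5 purifications, with values over the limit set to 35. let-7d (1.0 cycles), miR-103 (1.03), let-7c (1.24), miR-31 (1.26) and miR-886-5p (1.39), a name since withdrawn, were the nearest 5. miR-103 is a miRNA used as a reference on these panels. Its panel 1 well gave 27.91 with the p21 probe, 31.18 with the STAT3 probe and 33.50 with the control probe in HepG2, and no Cq in PC-3. That well matched miR-296-5p within 0.2 cycles with the p21 probe but gave more template with the other probes. The panel 2 well of miR-103 gave 27.74, 30.26 and 31.06 in HepG2, and it was detected in PC-3 with the p21 probe at 34.86. let-7d, of a family that restrains growth genes, gave 29.86, 32.51 and 34.48 with the p21, STAT3 and control probes in HepG2, and 34.86 with the p21 probe in PC-3. The likeness lies mostly in values at the limit, so it is a weak description.

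The labelled cell lines were checked against miRNAs known from them. The miRNAs used are all on panel 1. There 128, 139 and 108 of 375 assays were detected with the p21, STAT3 and control probes in HepG2. In PC-3 38 were detected with the p21 probe and 8 with the control probe. Of 6 liver-enriched miRNAs, 0 were detected with the p21 probe, 4 with the STAT3 probe and 0 with the control probe in HepG2, beside 28.3%, 34.4% and 16.8% of all assays. With the p21 probe miR-148a came at 37.62 and miR-194 at 38.13, both above the limit. Of miR-221, miR-222 and miR-31, abundant in PC-3, 2 were detected there with the p21 probe and 0 with the control probe; HepG2 gave 3 with the p21 probe, 3 with the STAT3 probe and 2 with the control probe, so these do not set the lines apart. Of 13 miRNAs known from blood, muscle, nerve and stroma, HepG2 gave 9 with the p21 probe, 10 with the STAT3 probe and 11 with the control probe, and PC-3 gave 0 with either probe, where 7.11% (p21 probe) and 2.15% (control probe) of all assays were detected. The part of this in the miR-296 results was not tested.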

How the data were processed

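The deposited main table holds Cq values, entered here as a score without normalization, with 1 well for each assay and uncalled wells given as undetermined. Per the labels' protocols, RNA was taken up on streptavidin Dynabeads, isolated with TRIzol and measured with Exiqon multiplex SYBR Green panels; instrument, threshold and software were not given in the sources used here. Besides, the authors deposited fold ratios, titled as log values but linear, which per the file headers are 2 raised to −ΔΔCt against an unnamed housekeeping gene. Rebuilt with UniSp6 and a limit of Cq 35, all 6 miR-296 entries came out the same to 3 digits.

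Samples were grouped by their titles as purification and panel; the panels are not replicates. Differences are the Cq of the second purification minus that of the first named, less the median over assays of the panel detected with both. A purification without a Cq of at most 35 was set to 35, which gives a lower bound. Differences of at least 1 log2 unit (2-fold) were counted. Reference assays are U6, SNORD38B, SNORD49A, miR-191, miR-423-5p and miR-103. The difference, centring and 2-fold call were run on simulated Cq values well under the limit, so the lower-bound rule was not tried there. Alternatives were other centrings, limits of 32 and 37, and the deposited folds. Named were both arms, miR-298, miRNAs with the same seed, the 5 nearest assays, the next 3 found with p21 and not control, detected p21 regulators and miR-92a. The members, lists and rules were chosen with earlier results of these data known. Sequences were matched by exact name, which 240 of the 745 assay names have. Python 3.11.15, pandas 2.3.3, numpy 2.4.6 and matplotlib 3.10.9 were used.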

Additional observations from a re-analysis of the deposited data

How the results depend on the processing

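With 1 purification per condition no replicate could be left out, and no difference was tested. The p21 against control bound of miR-296-5p in HepG2 stayed above 1 log2 unit throughout: 7.27 without centring, 3.55 on the reference assays, 4.83 on U6, SNORD38B and SNORD49A, 9.55 on UniSp3, 7.03 on UniSp6 and in the authors' deposited fold, 1.91 at a limit of 32, 7.87 at 37, and 7.52 with the control Cq as measured, an alternative added after the data were examined. Against the STAT3 probe it moved to 3.54 on the reference assays, 6.18 on UniSp3 and 3.65 at a limit of 32. For the STAT3 against the control probe it was -0.033 on the reference assays, 0.32 on U6, SNORD38B and SNORD49A, 3.37 on UniSp3, 2.56 on UniSp6 and in the authors' deposited fold, 3.20 at a limit of 37 and 3.14 with the control Cq as measured; at 32 it has no value. Between HepG2 and PC-3 with the p21 probe it was 7.27 without centring, 6.01 on the reference assays, 6.77 on U6, SNORD38B and SNORD49A, 8.32 on UniSp3, 6.20 on UniSp6, 1.86 at a limit of 32 and 6.82 at 37. On panel 1 with the p21 probe in HepG2, the 3 UniSp3 wells ranged from 21.60 to 24.91. At a limit of 32, where only the p21 well of miR-296-3p is detected, its bounds were -2.07 against the control, -0.47 against the STAT3 probe and -2.40 against PC-3, which set no direction. For p21 against control in PC-3, miR-296-5p gave no Cq in either well, so no centring or limit gives it a value, and the authors' deposited table lists 0.710. There miR-296-3p counts at a limit of 37 as detected with the control probe (36.71) and not with the p21 probe, and no fold was computed. Between HepG2 and PC-3 with the p21 probe, its bound was 3.32 on UniSp3, 2.74 on UniSp6 and 4.57 at a limit of 37. The listed p21 regulators detected at a limit of 32 were 4, 4 and 0 with the p21, STAT3 and control probes in HepG2. In PC-3 they were 0 with the p21 probe. At 37 they were 12, 17 and 7 in HepG2, and 3 with the p21 probe and 1 with the control probe in PC-3. The shares of all assays at these 2 limits are not given here, so these counts do not compare the purifications. Already at 35 the STAT3 probe detected more of all assays in HepG2, 34.4% against 28.3% with the p21 probe. Of the 5 assays nearest to miR-296-5p, 1 remained when ranked by correlation and 2 among assays found with the p21 and not the control probe. The cause of these shifts was not tested. Values near Cq 35 rest on few template molecules and are less precise than the SDs of repeated wells.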
